A study of Mus musculus with 6 samples.

Results

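Metabotropic glutamate receptors are represented here by 6 genes, Grm2, Grm3, Grm4, Grm5, Grm7 and Grm8, chosen by gene symbol from the 55341 genes in each count table. RNA-seq was performed on cultured mouse cerebellar granule neurons (CGNs), where 3 libraries represent DMSO, the solvent, and 3 represent GSK-126, which inhibits EZH2, the enzyme that writes H3K27me3. The sample labels name DIV3 (3 days in vitro) for both groups and cerebellum as the tissue. DIV3 was read as the day of addition, since the methods describe cultures treated once and collected on a later day. The dose for this addition was not given in the sources used here. Both groups came from CD1-IGS pups with no engineered allele named, from granule neuron progenitors (GNPs) enriched on a Percoll gradient, and both received cytosine arabinoside, which blocks division of non-neuronal cells. Per the methods, the cerebella of a litter or litters were pooled for each culture replicate. Whether a DMSO and a GSK-126 library of the same number share a preparation was not given in the sources used here.

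These receptors sense glutamate outside cells and signal through G proteins rather than by opening a pore. Grm5 belongs to group I, which acts through Gq and phospholipase C. Grm2 and Grm3 form group II, and Grm4, Grm7 and Grm8 belong to group III, and both of these groups act through Gi/o proteins, which lower cyclic AMP and open potassium channels. In cerebellum, Grm4 is known as a receptor on the terminals of granule neuron axons, where it limits transmitter release.

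Since the members are related in sequence, their coding sequences were compared in the GRCm38 genome with GENCODE M21. Identity was 69.5% to 70.4% of aligned bases among the group III genes and 68.8% between Grm2 and Grm3. Across groups it was 60.8% to 64.9%. The longest run of bases shared by any pair was 27, between Grm3 and Grm4, and the next was 26, between Grm4 and Grm7. Both runs are printed because they show where reads of Grm4 look most like those of another member. Sequences run 5′ to 3′ on the strand of the gene, from protein-coding exons, and capitals mark the shared run.
Grm3, chr5:9511493-9511551, minus strand: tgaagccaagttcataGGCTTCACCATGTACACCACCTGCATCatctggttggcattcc
Grm4, chr17:27434571-27434629, minus strand: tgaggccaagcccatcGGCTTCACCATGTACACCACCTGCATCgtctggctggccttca
Grm4, chr17:27434634-27434693, minus strand: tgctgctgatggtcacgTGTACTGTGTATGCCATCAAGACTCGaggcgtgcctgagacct
Grm7, chr6:111358920-111358979, plus strand: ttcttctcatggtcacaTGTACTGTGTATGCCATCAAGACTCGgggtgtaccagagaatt

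The bases on either side of each run differ between the genes at several positions, so a read that extends past the run carries differences.

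Depth limited what could be said about the rarer receptors. Counts on genes ranged from 7407189 to 13092763 per library, and the lines that name no gene held 58.7% to 60.7% of the listed reads. Libraries with the same replicate number deviated together from their group means (correlations of 0.56, 0.63 and 0.49 for numbers 1, 2 and 3, and at most 0.0064 for other combinations), so the numbers were treated as pairs, and blocked fits (replicate number as a term) stand beside unblocked ones. Unblocked, edgeR (quasi-likelihood, Benjamini-Hochberg adjusted) called 0 of 16729 genes higher (0%) and 0 lower (0%), and 296 and 369 had an unadjusted p under 0.05, where DESeq2 called 19 and 2. Blocked, edgeR called 561 genes higher (3.35%) and 851 lower (5.09%). The split depended on the scaling, with 727 higher and 698 lower under upper-quartile factors. Of the 6 receptors 5 were tested, since Grm2 reached the count filter in 1 library of each group where 3 libraries were needed. Against those backgrounds, the unblocked fit called 0 of the 5, and none of them had an unadjusted p under 0.05. The blocked fit called 1 of the 5 lower, Grm4, and 0 higher.

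Per length of merged exons, Grm4 was the most abundant of the 6 in both groups. Its level was 58.5 ± 33.2 CPM per kb with DMSO and 37.0 ± 21.2 with GSK-126 (SD, n = 3). Grm5 followed with 13.3 ± 3.10 and 12.4 ± 2.77 CPM per kb. Next came Grm3 with 5.87 ± 1.55 and 5.15 ± 2.95 CPM per kb. Within each group the libraries of Grm4, Grm5 and Grm3 did not overlap with those of the next gene in the order. The other members lay far lower, Grm7 at 0.426 ± 0.188 and 0.345 ± 0.196 CPM per kb, Grm2 at 0.249 ± 0.114 and 0.139 ± 0.116, and Grm8 at 0.180 ± 0.0386 and 0.1003 ± 0.0139. Among these 3 the libraries of neighbours in the order overlapped in both groups, so Grm7 and Grm2, and Grm2 and Grm8, were not separated beyond their spread. Dividing by the longest transcript instead placed Grm8 (0.372 and 0.207 CPM per kb) above Grm2 (0.259 and 0.144).

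**Figure D1:**
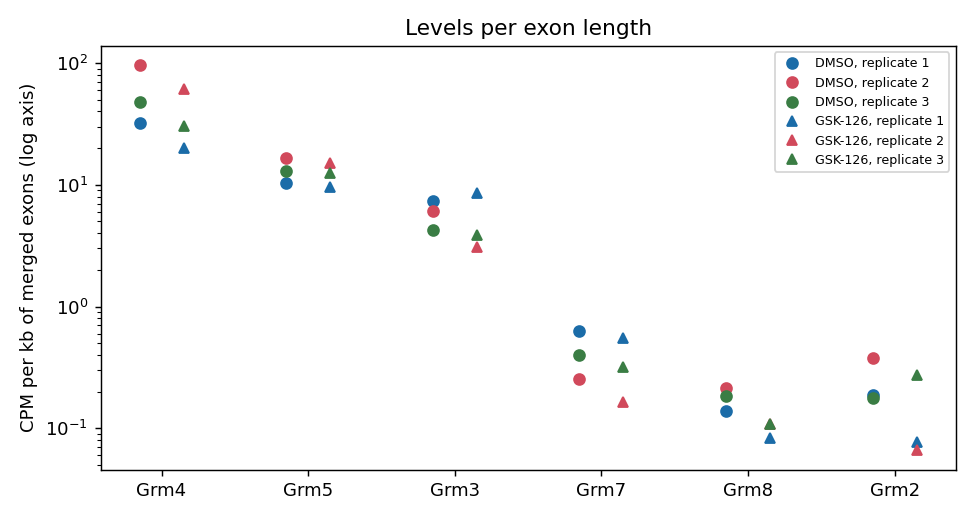
Level of each receptor gene in CPM per kb of merged exons (log axis), with 1 point per library, circles for DMSO and triangles for GSK-126, coloured by replicate number. Grm4, Grm5 and Grm3 lie between 3.07 and 95.8, and Grm7, Grm8 and Grm2 reach at most 0.627.

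Grm4 also made up most of the summed per-length level of the 6 genes. Its share was 63.4%, 80.3% and 72.6% in DMSO replicates 1, 2 and 3, and 51.7%, 76.6% and 64.0% in the GSK-126 replicates. It was lower with GSK-126 within each replicate number, while the groups overlapped. The mean share of Grm5 was 18.0% with DMSO and 23.4% with GSK-126, and that of Grm3 was 8.64% and 11.3%. Shares of a total rise when another share falls. The mean levels themselves were not higher with GSK-126 (Grm5 13.3 and 12.4, Grm3 5.87 and 5.15 CPM per kb).

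Group I was represented by Grm5 (ENSMUSG00000049583.15, GRCm38 chr7:87584168-88134907, plus strand), a postsynaptic receptor coupled to calcium release. It was measured at 106, 169 and 133 CPM in DMSO replicates 1, 2 and 3, and at 98.3, 155 and 127 CPM in the GSK-126 replicates. Replicate 2 was highest and replicate 1 lowest in both groups, and the groups overlapped. The means were 136 ± 31.7 and 127 ± 28.3 CPM (SD, n = 3), and an exact permutation test, two-sided, gave p = 0.7, where 3 against 3 libraries cannot go below 0.1. With the block the log2 fold change was -0.10 (SE 0.076, 95% interval -0.25 to 0.049, edgeR adjusted p = 0.491). This interval runs from a small fall to a slight rise.

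Group II contained Grm3 (ENSMUSG00000003974.6, chr5:9485541-9725170, minus strand), found in astroglia as well as neurons. Grm3 was measured at 22.3, 18.6 and 12.9 CPM in the DMSO replicates and at 26.0, 9.37 and 11.8 CPM in the GSK-126 replicates. The values overlapped, and the sign differed between replicate numbers, with GSK-126 higher in pair 1 and lower in pairs 2 and 3. The within-pair log2 ratios were 0.22, -0.95 and -0.12. With the block the log2 fold change was -0.26 (SE 0.19, edgeR adjusted p = 0.462), and it became 0.07 without pair 2. Of 8 astroglial markers, the summed level was 2336 to 7073 CPM with DMSO and 2203 to 7477 CPM with GSK-126. Replicate 1 had the highest astroglial sum and the highest Grm3 in both groups, while replicate 2 had the lowest sum in both and the lowest Grm3 with GSK-126 alone. Of the 8, the blocked fit called Gdf10 and S100b higher and 0 lower. The part of these cells in the Grm3 values was not tested.

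Grm2 (ENSMUSG00000023192.12, chr9:106643095-106656082, minus strand), the other group II gene, was near the limit of detection. Its counts were 8, 20 and 10 in the DMSO replicates and 5, 3 and 10 in the GSK-126 replicates. In CPM these were 0.923, 1.86 and 0.869 against 0.379, 0.323 and 1.34. GSK-126 replicate 3 exceeded 2 of the 3 DMSO libraries, so the groups overlapped. An exact permutation test, two-sided, gave p = 0.3, and with no count filter edgeR gave an adjusted p of 0.853 unblocked and 0.765 blocked. In the annotation 470 bases of its exons lie opposite exons of Gm28111, and the strand setting of the counting was not given in the sources used here.

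Among the group III genes, Grm4 (ENSMUSG00000063239.17, chr17:27422387-27521403, minus strand) fell with GSK-126 once the replicate number was accounted for. It was measured at 192, 573 and 284 CPM in DMSO replicates 1, 2 and 3, from 1668, 6143 and 3266 counts. The GSK-126 replicates had 120, 363 and 180 CPM, from 1587, 3372 and 1349 counts. The groups overlapped, because replicate 2 was highest and replicate 1 lowest in both. Replicate 2 exceeded replicate 1 by 2.98-fold with DMSO and 3.02-fold with GSK-126. Within replicate numbers, GSK-126 had 0.625, 0.634 and 0.635 of the DMSO level. The mean within-pair log2 ratio was -0.66 with an SD of 0.012 over 3 pairs, so the pairs differed from each other far less than the libraries of a group did. This SD rests on 3 values and is smaller than the SE of 0.070 from the blocked fit, so it overstates the precision.

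**Figure D2:**
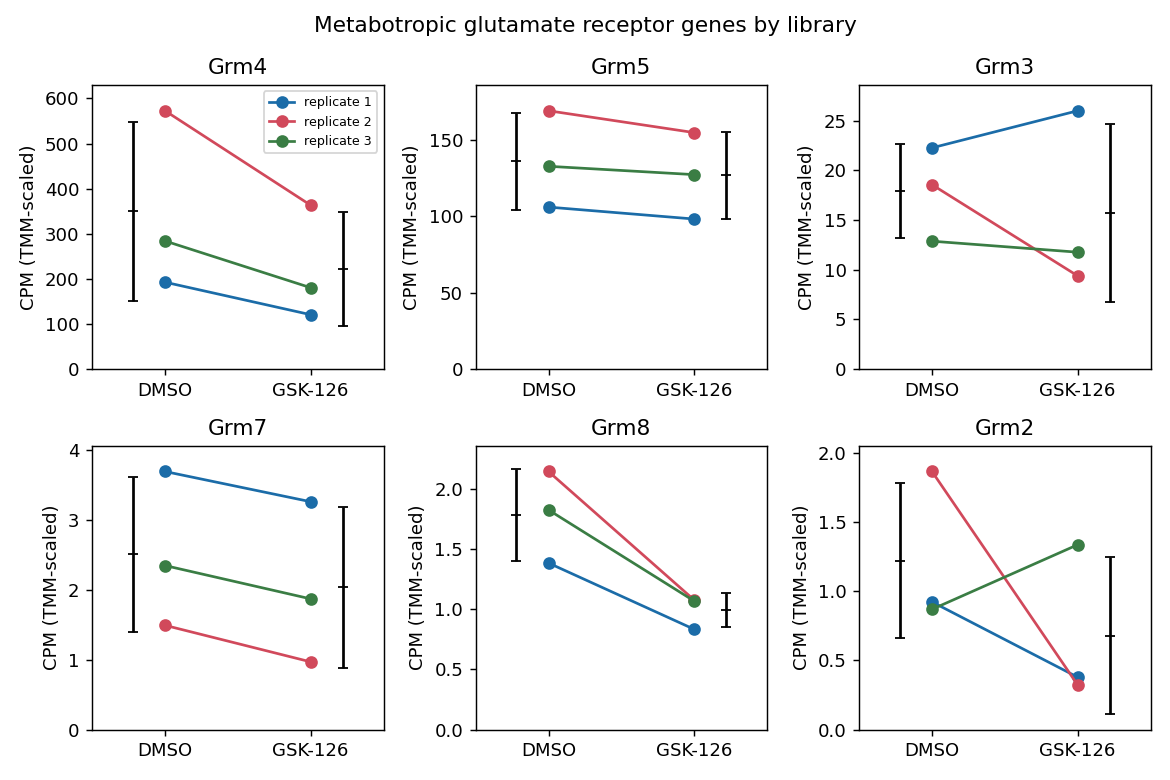
CPM of the 6 receptor genes in each library, with lines joining libraries of the same replicate number and black bars for the mean and SD of each group (n = 3). Each panel has its own axis from 0. The Grm4 lines fall in parallel from 192, 573 and 284 to 120, 363 and 180 CPM, and those of Grm2 and Grm3 cross.

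The group means of Grm4 were 350 ± 199 CPM for DMSO and 221 ± 127 CPM for GSK-126 (SD, n = 3). Without the block the log2 fold change was -0.66 (SE 0.49, edgeR adjusted p = 0.953), and the exact permutation test, two-sided, gave p = 0.4. With the block it was -0.66 (SE 0.070, 95% interval -0.80 to -0.53, edgeR adjusted p = 3.59e-06). DESeq2 with the block gave -0.66 (adjusted p = 4.95e-15) and without it an adjusted p of 1. Leaving out pair 1, 2 or 3 kept the blocked value at -0.64, -0.66 and -0.67, past the threshold each time. Without the block, single libraries moved the estimate from -0.10 (without DMSO replicate 2) through -0.35 (without GSK-126 replicate 1) and -0.94 (without DMSO replicate 1) to -1.20 (without GSK-126 replicate 2), each of which breaks a pair.

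**Figure D3:**
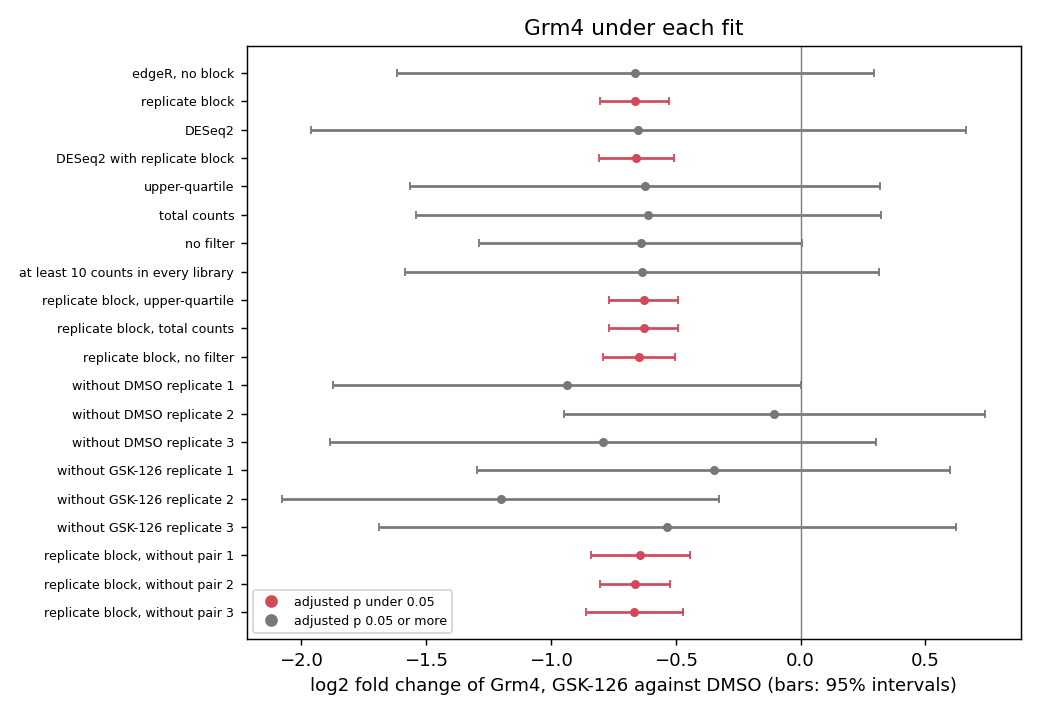
Log2 fold change of Grm4, GSK-126 against DMSO, under each fit, with bars for 95% intervals and red for an adjusted p under 0.05. Every fit with the replicate block lies between -0.67 and -0.63 with short bars, and the fits without it range from -1.20 to -0.10.

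Most of the listed granule neuron markers were lower with GSK-126, as Grm4 was, though by unequal amounts. The summed level of 10 granule neuron markers was 3888 to 6444 CPM with DMSO and 2994 to 4874 CPM with GSK-126, and had within-pair log2 ratios of -0.38, -0.40 and -0.44. With the block 8 of the 10 were called lower and 0 higher, where 5.09% of all genes were called lower. Pax6 (log2 fold change -0.07, edgeR adjusted p = 0.643) and Zic2 (-0.20, 0.0799) were not called. The called markers ran from -0.31 for Zic1 to -1.19 for Gabra6. Zic1 and Cbln1 were the largest parts of the sum. Relative to this sum, Grm4 had within-pair log2 ratios of -0.30, -0.25 and -0.21, a quantity chosen after the values were seen. In bulk RNA fewer cells of a type and less RNA per cell cannot be told apart. The sum for 6 granule progenitor markers was 433 to 647 CPM and 519 to 737 CPM. Of the 4 tested, 2 were called higher, Ccnd2 and Barhl1, and 0 lower. Mki67 and Top2a were not called (edgeR adjusted p with the block 0.634 and 0.977). Atoh1, the defining progenitor gene, was at most 0.754 CPM. Of 7 markers of GABAergic interneurons 3 were called lower, Gad1, Gad2 and Slc32a1, where 5.09% of all genes were. Their sums over the list were 223 to 246 CPM and 171 to 201 CPM, with Gad1 the largest part. Pvalb and Lgi2 had blocked log2 fold changes of 0.51 and 0.19, and Slc6a5 and Pax2 of -0.30 and -0.10. None of these was called. Other sums had no single direction. Within-pair log2 ratios were 0.033, 1.07 and -0.36 for Purkinje cell markers and -0.11, 0.17 and -0.15 for unipolar brush cell markers. Of the latter, Eomes was called lower. For the astroglial markers they were 0.080, -0.085 and -0.013. Sums of the microglial, vascular and meningeal, and oligodendrocyte lineage lists were higher with GSK-126 in all 3 pairs. The sum of 6 microglial markers was 149 to 320 CPM and 205 to 373 CPM, with 1 called higher, C1qa. That of 6 vascular and meningeal markers was 4681 to 6484 CPM and 5803 to 7069 CPM, with 2 called higher, Pdgfrb and Col1a2. Most of this sum came from Col1a1 (2303 to 3716 CPM over all libraries) and Col1a2 (1999 to 2898 CPM). Cldn5 and Pecam1 were at most 0.91 and 2.05 CPM. Cldn5 did not pass the count filter and was not tested, and Pecam1 was not called. That of 8 oligodendrocyte lineage markers was 433 to 747 CPM and 502 to 762 CPM, with 1 called higher. No marker of these lists was at 0 in all 6 libraries. The part of these cells in the Grm4 values was not tested.

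Grm7 (ENSMUSG00000056755.13, chr6:110645581-111567230, plus strand), a low-affinity presynaptic receptor, was measured at 3.69, 1.49 and 2.35 CPM in the DMSO replicates. The GSK-126 replicates had 3.26, 0.969 and 1.87 CPM. The groups overlapped, and in both groups replicate 1 was highest and replicate 2 lowest, the reverse of Grm4. The astroglial, microglial and oligodendrocyte lineage marker sums had the same order as Grm7. The part of these cells in the Grm7 values was not tested. The within-pair log2 ratios were -0.16, -0.44 and -0.26. They rest on 75 counts with DMSO and 66 with GSK-126 in all, and the blocked log2 fold change of -0.34 (SE 0.40) did not pass the threshold (edgeR adjusted p = 0.686). The ratio of the pooled levels was 0.907, with a 95% interval of 0.642 to 1.28 that covers counting error only. In the annotation 130 bases of its exons lie opposite exons of Gm20387.

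Grm8 (ENSMUSG00000024211.15, chr6:27275119-28135178, minus strand), the remaining group III gene, was the one receptor whose groups did not overlap. It was measured at 1.38, 2.14 and 1.83 CPM in the DMSO replicates and at 0.834, 1.08 and 1.07 CPM in the GSK-126 replicates. These values come from 12, 23 and 21 counts against 11, 10 and 8. Of all genes tested, 4.72% were lower in every GSK-126 library than in any DMSO library and 4.72% were higher. The exact permutation test, two-sided, gave p = 0.1, the smallest possible. The log2 fold change was -0.86 without the block (SE 0.40, edgeR adjusted p = 0.953) and -0.83 with it (SE 0.48, edgeR adjusted p = 0.343). The pooled ratio was 0.534, with a 95% interval of 0.329 to 0.851 for counting error only. Grm8 met the count filter in all 3 DMSO libraries and in 2 GSK-126 libraries, and 96 bases of its exons overlap Mir592 on the same strand.

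Viewed by pair, Grm4, Grm5, Grm7 and Grm8 were lower with GSK-126 in 3 of 3 replicate numbers, and Grm2 and Grm3 in 2 of 3. Of all genes tested, 22.8% were lower in all 3. The pair ratios were tightest for Grm4 and Grm5 and most scattered for Grm2 (SD 0.98), the gene with the fewest counts. Grm3 came next (SD 0.60), although it had more counts than Grm7 and Grm8 (SD 0.14 and 0.13).

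**Figure D4:**
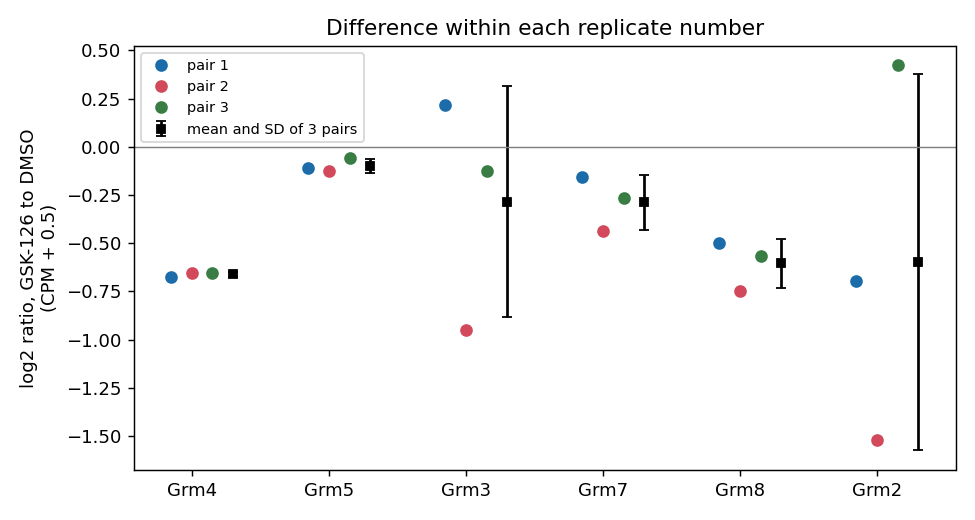
Log2 ratio of GSK-126 to DMSO within each replicate number (CPM with 0.5 added), with coloured points for pairs 1 to 3 and black squares with bars for their mean and SD. The Grm4 points lie at -0.68, -0.66 and -0.65, while those of Grm2 spread from -1.52 to 0.42.

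Ratios between members within a library do not depend on scaling between libraries. The log2 ratio of Grm4 to Grm5 changed by -0.57, -0.53 and -0.60 in pairs 1, 2 and 3, lower in 3 of 3 pairs. The groups overlapped, and the exact permutation test, two-sided, gave p = 0.3 (0.875 after Benjamini-Hochberg adjustment over 5 ratios). The log2 ratio of Grm4 to Grm8 changed by 0.14 on average (SD 0.14), and the exact permutation test, two-sided, gave p = 0.6. Which of Grm4 and Grm8 differed more between groups depended on the pseudocount, with mean within-pair log2 ratios of -0.66 and -0.60 when 0.5 was added to CPM and -0.66 and -0.77 when 0.1 was added. Against Grm7 the mean change was -0.30 (SD 0.22). Against Grm3 and Grm2 it was -0.37 (SD 0.63) and 0.32 (SD 1.49), with signs that differed between pairs.

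The genes most like Grm4, Grm5 and Grm7 were ranked by Pearson's correlation of log2 CPM over the 6 libraries among 15219 genes, which share depth and the difference between replicate numbers. Nearest to Grm4 were Trhde (0.9993), Wscd2 (0.999) and Oprl1 (0.9989), and with the block their log2 fold changes were -0.53, -0.32 and -0.32. Nearest to Grm5 were Dlg2 (0.9983), which encodes a postsynaptic scaffold, St8sia1 (0.997) and Pcf11 (0.9965). For Grm7 they were Six5 (0.9979), Notch1 (0.9973) and Csad (0.9932). Only 6 libraries stand behind each value, and subtracting the mean of each replicate number named different genes, Gm47956, Zfp445 and Ash2l for Grm4.

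Genes of receptor signalling were then examined. Of 55 listed, 54 were in the tables and 51 were tested. Unblocked, edgeR called 0, and 0 had an unadjusted p under 0.05. In the blocked fit 6 of the 51 were called lower (11.8%, against 5.09% of all genes) and 1 higher (1.96%, against 3.35%). The median log2 fold change was -0.10, against -0.0056 for all genes. The list was chosen with earlier results of these data known, so the shares describe it and test nothing. The block called 4 lower with upper-quartile factors and 3 without pair 1. DESeq2 with the block called 5.

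The 3 genes with the smallest p act downstream of G proteins. Adcy1, a calcium-stimulated adenylyl cyclase, was measured at 901, 2233 and 1184 CPM in the DMSO replicates and at 586, 1268 and 777 CPM in the GSK-126 replicates. Its groups overlapped, it was lower in 3 of 3 pairs, and with the block it fell by 0.68 on the log2 scale (SE 0.069, edgeR adjusted p = 2.61e-06). The other 5 adenylyl cyclases tested were not called. Kcnj9, a subunit of the G-protein gated potassium channel, was measured at 19.5, 37.9 and 21.0 CPM against 8.11, 22.4 and 10.4 CPM. It was lower in 3 of 3 pairs and fell by 0.99 (SE 0.15, edgeR adjusted p = 0.000223). Kcnj3, a partner subunit, was measured at 93.2, 215 and 112 CPM against 64.0, 147 and 85.2 CPM, and fell by 0.50 (SE 0.079, edgeR adjusted p = 0.000352). For each of the 3, replicate 2 was highest in both groups, as for Grm4, and the call held without each pair. Of the channel genes 3 were tested, and Kcnj6 was not called.

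The other calls were smaller. Among 11 scaffolds and partners tested, Homer2, which links group I receptors to the postsynaptic density, rose from 112 ± 17.0 to 140 ± 33.0 CPM (log2 fold change 0.31 with the block, edgeR adjusted p = 0.0208). Shank1, a scaffold bound by Homer proteins, fell by 0.32 on the log2 scale (edgeR adjusted p = 0.0281) and Ncdn fell by 0.23 (0.0498). Grk2, a kinase that desensitizes receptors, fell by 0.30 (edgeR adjusted p = 0.011), the one call among 11 genes of desensitization and RGS proteins. None of these calls held without each pair. Grk2 was lost without pair 1 (adjusted p = 0.153) and Homer2 without pair 2 (0.149). Shank1 was lost without any one pair (0.0561 to 0.176), and Ncdn without pair 1 (0.292) or pair 3 (0.271). Shank1 and Ncdn were also lost with upper-quartile factors (0.051 and 0.0981). In the Gq and phospholipase C arm 0 of 8 genes were called, among Gi/o proteins 0 of 10, and 0 of 2 trans-synaptic partners.

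**Figure D5:**
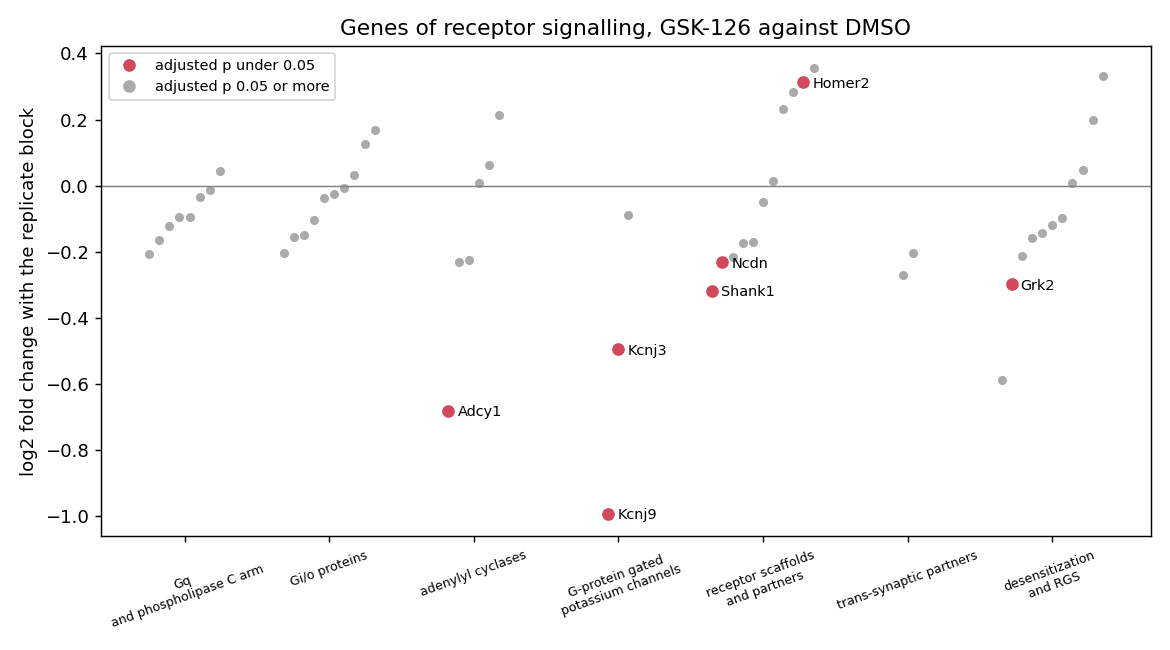
Log2 fold change with the replicate block for 51 tested genes of receptor signalling, grouped by role, with red and a name for an adjusted p under 0.05. Kcnj9 (-0.99), Adcy1 (-0.68) and Kcnj3 (-0.50) lie lowest among the named genes, and Homer2 (0.31) is the one named gene above 0.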

How the data were processed

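RNA was poly(A)-selected. Per the submitters' processing notes, reads were trimmed with Trimmomatic 0.38 and aligned to mm10 with STAR 2.7.2b, and per the methods the authors counted reads on exons with HTSeq. The authors deposited raw counts per gene, with no normalization. Groups and replicate numbers came from the sample titles. From the counts, CPM was computed with TMM factors, and edgeR 4.0.16 (quasi-likelihood test, R 4.3.3) was fitted to all genes past filterByExpr (minimum count 10), with Benjamini-Hochberg adjustment and a threshold of 0.05. The named genes are the 6 members, the called genes of a signalling list and the 3 most correlated genes per tested member above a mean log2 CPM of 1, from which Grm8 was absent. DESeq2 1.42.0, other scalings and filters, the replicate block and left-out libraries were alternatives. The pipeline was tested on simulated data. The labels do not say whether replicates were separate cultures, while the methods define a culture replicate by its pooled tissue, and p-values measure the spread between these libraries. The members and lists were chosen with earlier results of these data known. Other genes of the family, and the genes most correlated with Grm3, are not reported here.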

Additional observations from a re-analysis of the deposited data

How the results depend on the processing

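With the replicate block 561 genes were called higher and 851 lower, with DESeq2 19 and 2, with DESeq2 and the block 359 and 604, and with no filter 9 and 1. The block with upper-quartile factors, with total counts and with no filter, all chosen after seeing the data, gave 727 and 698, 714 and 707, and 737 and 874. The block without pair 1, 2 or 3 gave 417 and 671, 337 and 496, and 558 and 719. Signalling genes called higher numbered 1 with the block, DESeq2 with the block, each added block fit and the block without pair 3, and 2 without pair 1. Signalling genes called lower numbered 6 with the block and with the block and no filter, 4 with DESeq2 and the block, upper-quartile factors or total counts, and 3, 5 and 4 without pair 1, 2 or 3. The fits that leave out 1 library gave 0 and 0 calls in each case. They moved the log2 fold change of Grm5 from -0.25 to 0.09 (0.088 lacking DMSO replicate 2, 0.068 lacking GSK-126 replicate 1), of Grm3 from -0.74 to 0.11 (0.031 lacking DMSO replicate 1, 0.11 lacking GSK-126 replicate 2), and of Grm7 from -0.81 to 0.12 (0.12 and 0.082 lacking the same libraries). Grm3 was 0.072 with the block without pair 2. The cause was not tested. Grm4 kept its direction in every fit run, and Grm2 and Grm8 in every fit that included them. The fit asking for at least 10 counts in every library left both of these out. The block changed the call of Grm4 alone among the receptors. Grm2 and Grm8 had at most 20 and 23 counts in any library, and the size of change that could be called at such counts was not tested.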
